A study of Mus musculus with 10 samples.

Results

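The comparison described here set mouse embryonic fibroblasts (MEFs) that had been pretreated with interferon and then restimulated for 2 h against pretreated cells at 0 h. It rests on 2 of the 10 libraries of the series, 1 at each time. Of 23370 gene symbols in the deposited table, 12168 reached 1 RPKM (reads scaled by transcript length and library size) in 2 or more libraries and were compared. Where a symbol had several transcripts, the one with the highest mean RPKM over the 10 libraries stood for it.

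The pretreated arm was sampled at 0, 1, 2, 4 and 6 h, and the naive arm of cells without pretreatment at the same times, with 1 library for each. All cells came from C57BL/6 mice of the genotype H3.3b-HA knock-in, in which an HA-tagged H3.3 cDNA took the place of the H3f3b locus. The tagged allele was therefore carried by both arms and all times. Interferon-beta was used at 100 U/ml in the series. The dose and length of the pretreatment, the wash between the treatments, and whether the cells were 1 isolate or a pool were not given in the sources used here. Poly(A) selection or ribosomal depletion was not given either. With 1 library per arm and time, no spread between cultures could be estimated, so no value below carries a p-value, and every difference is a description of these libraries. A gene is called higher or lower, or said to have risen or fallen, when its log2 difference, computed on RPKM + 1, was 1 or more in size, which is a 2-fold difference on that scale. This scale understates the change of genes with low levels.

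Interferon-beta binds the receptor chains IFNAR1 and IFNAR2, whose kinases JAK1 and TYK2 phosphorylate STAT proteins. The STATs join IRF9 in the complex ISGF3, which binds the interferon-stimulated response element (ISRE), while other STAT dimers bind the GAS element. The induced genes include inhibitors of the pathway itself, such as Socs1 and Usp18, and fibroblasts exposed once to interferon can keep transcripts of some induced genes and answer a second exposure at changed speed.

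The deposited counts of the transcripts used came to 83907622 in the pretreated 2 h library, the smallest of the 10, and 129400072 in the pretreated 0 h library, and the largest library, pretreated 6 h, held 268464464. A gene near 1 RPKM had a median of 195 counts at 2 h and 342 counts at 0 h. The fibroblast markers fixed for the check summed to 7813 RPKM at 2 h against 8190 at 0 h, and 9 of the 10 passed the filter, the exception being Lum, under 1 RPKM. Macrophage markers summed to 4.08 RPKM at 2 h against 3.64 at 0 h, with Ptprc and Emr1 at 0 in both libraries. Lymphocyte markers summed to 0.066 RPKM at 2 h against 0.114 at 0 h, with Cd3e at 0 in both libraries. No marker that passed the filter was 2-fold apart on the scale of RPKM + 1. Of the 7 cell types, lymphocytes had 0 markers past the filter, and macrophages, epithelium and muscle had 1 each. For markers this low, that scale could hardly show a difference.

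The pretreated libraries were not alike in every respect beyond time. The ribosomal precursor Rn45s took 1.42% of counts at 2 h and 3.9% at 0 h, with 2.85% at 1 h and between 0.974% and 1.51% in every other library. The imprinted noncoding RNA H19 had 9.39, 43.7, 9.19, 44.4 and 9.78 RPKM over the 5 pretreated times, earliest first, and Igfbp2 had 5.34, 21.2, 3.81, 21.4 and 5.25 RPKM. By these genes the 0 and 2 h libraries were alike, and the 1 and 4 h libraries stood apart from both. The part of this split in values at 1 and 4 h was not tested.

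The upstream regions of 5 of the 20 genes with the largest rises are shown because each holds a match to the ISRE, the element through which ISGF3 acts. They are the 5 highest-ranked of those genes with a match in a RefSeq promoter window (GRCm38.p6), printed 5′ to 3′ on the gene's strand up to the base before the annotated start. Capitals mark matches to the ISRE, searched as GAAA, 2 bases of any kind and GAAA again, and to the GAS, searched as TTCNNNGAA, both on either strand.
Cxcl10 (chr5:92348890-92349139, minus strand): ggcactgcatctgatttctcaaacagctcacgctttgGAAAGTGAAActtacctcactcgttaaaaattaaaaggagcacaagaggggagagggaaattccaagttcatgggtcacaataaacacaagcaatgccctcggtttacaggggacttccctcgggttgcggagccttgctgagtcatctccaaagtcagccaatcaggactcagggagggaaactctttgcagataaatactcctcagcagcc
Rsad2 (chr12:26456453-26456702, minus strand): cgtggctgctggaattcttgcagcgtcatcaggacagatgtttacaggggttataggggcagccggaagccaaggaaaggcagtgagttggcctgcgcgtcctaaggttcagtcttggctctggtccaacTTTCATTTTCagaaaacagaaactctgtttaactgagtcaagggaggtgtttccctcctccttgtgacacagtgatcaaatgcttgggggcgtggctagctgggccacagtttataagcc
Gm14446 (chr19:34601969-34602218, minus strand): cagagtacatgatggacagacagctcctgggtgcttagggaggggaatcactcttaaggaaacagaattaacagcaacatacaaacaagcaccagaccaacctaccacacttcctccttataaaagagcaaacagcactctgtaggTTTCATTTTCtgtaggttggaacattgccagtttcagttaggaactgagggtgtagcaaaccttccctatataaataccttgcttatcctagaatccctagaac
Gbp5 (chr3:142496684-142496933, plus strand): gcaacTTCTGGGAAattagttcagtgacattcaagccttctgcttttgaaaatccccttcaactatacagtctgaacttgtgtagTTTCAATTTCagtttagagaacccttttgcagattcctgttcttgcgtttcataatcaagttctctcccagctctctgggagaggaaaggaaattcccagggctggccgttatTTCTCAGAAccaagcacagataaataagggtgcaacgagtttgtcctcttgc
Socs1 (chr16:10785537-10785786, minus strand): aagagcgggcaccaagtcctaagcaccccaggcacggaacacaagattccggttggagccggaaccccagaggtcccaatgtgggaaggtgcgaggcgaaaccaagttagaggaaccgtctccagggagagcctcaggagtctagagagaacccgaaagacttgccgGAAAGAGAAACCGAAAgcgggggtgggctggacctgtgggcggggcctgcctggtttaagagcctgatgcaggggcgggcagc

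The ISRE match began 213 bases before the start of Cxcl10, 120 before that of Rsad2, 104 before that of Gm14446 and 165 before that of Gbp5. In Socs1, 2 overlapping matches began 83 and 77 bases before the start and form a single capital run. Gbp5 also held GAS matches that began 245 and 52 bases before its start. Of the 20 genes with the largest rises, 16 matched a window; 9 of these held an ISRE (Cxcl10, Rsad2, Gm14446, Gbp5, Socs1, Pydc3, Gbp2, Gm12250 and Ncoa7) and 3 held a GAS (Ifit2, Gbp5 and Gm12250). Over all 32851 windows of the reference table, 3.44% held the ISRE letters and 8.3% the GAS letters. Of the 15 genes with the largest falls, 10 matched a window and none of these held either; with so few matched, that share was not read further. The genes were chosen on their rise, and a match is a description of letters, not evidence of binding.

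At 2 h, 438 of the 12168 genes were higher than at 0 h in pretreated cells (3.6%) and 135 were lower (1.11%), together 4.71%. The rises were also larger than the falls. At 4-fold there were 112 higher and 6 lower genes, at 8-fold 28 and 3, and at 16-fold 8 and 0. The median gene differed by -0.05 on the log2 scale, and the range from the 5th to the 95th percentile ran from -0.66 to 0.80. At the threshold, Ifi35 lay just inside and Usp42, at 0.999, just outside, while Rab20 was just inside the lower side and Socs3 just outside it. With a pseudocount of 0.1 RPKM in place of 1, rises made up 65.3% of the called genes, against 76.4% as reported. At a fold of 1.5 the excess of rises was nearly gone, with 934 higher and 895 lower genes (51.1% higher).

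**Figure D1:**
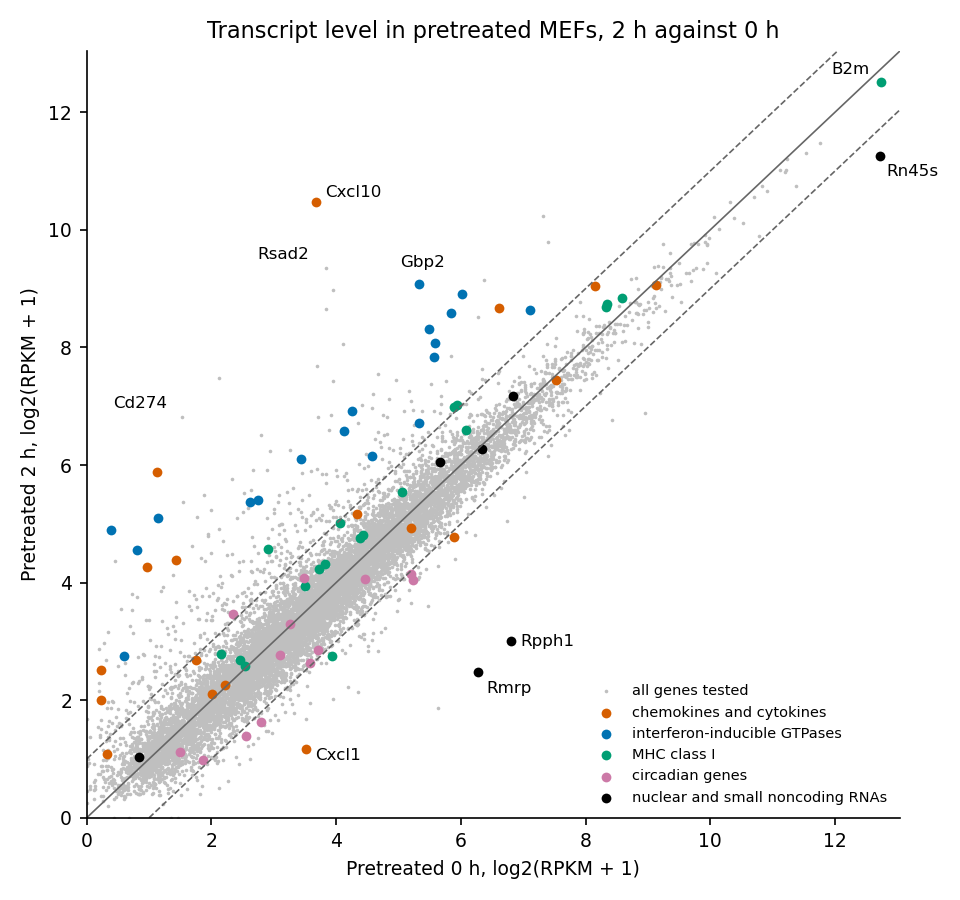
Level of each of the 12168 genes as log2(RPKM + 1) in the pretreated 2 h library (vertical axis) and the pretreated 0 h library (horizontal axis), 1 library each. The solid line marks equal levels and the dashed lines a 2-fold difference; coloured points are members of 5 gene lists. Cxcl10 at 1412 RPKM and Rsad2 lie far above the upper line, Rmrp and Rpph1 far below the lower one, and B2m close to the diagonal.

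The largest rise was that of Cxcl10 (chr5:92346639-92348889, mm10), the chemokine that draws CXCR3-bearing T cells. It had 1412 RPKM at 2 h, from 129469 counts, against 11.7 RPKM at 0 h, from 1652 counts. The ratio was 120.3-fold, with a 95% interval of 115 to 126 that covers counting error only, and the log2 difference was 6.79. In RPKM, its 2 h level was above those of Rsad2 and Ifit2. Rsad2 (chr12:26442743-26456452), which encodes viperin, an enzyme that makes a chain-terminating nucleotide, had 650.3 RPKM at 2 h against 13.3 at 0 h, 48.8-fold higher (interval 47.6 to 50.05). Its neighbour Cmpk2 (chr12:26469215-26479837), a mitochondrial nucleotide kinase, had 266 RPKM at 2 h against 16.3 at 0 h, 16.3-fold higher. Both members of this divergent pair therefore rose, Rsad2 by the larger factor.

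The surface ligand Cd274 (chr19:29367438-29388094), which is PD-L1, the partner of the T cell checkpoint receptor PD-1, had 111 RPKM at 2 h against 1.89 at 0 h, 58.98-fold higher (interval 55.2 to 63.1). Tnfsf10, the death ligand TRAIL, had 58.1 RPKM at 2 h against 1.18 at 0 h, 49.2-fold higher (interval 45.8 to 53.01). Both stood lower later: at 4 and 6 h of the pretreated arm Cd274 stood at 21.3 and 12.5 RPKM and Tnfsf10 at 15.4 and 10.038 RPKM. The chemerin-binding receptor gene Ccrl2 had 19.7 RPKM at 2 h against 0.374 at 0 h, a log2 difference of 3.92. Mxd1, a partner of MAX that opposes MYC, had 33.8 RPKM at 2 h against 2.39 at 0 h, a log2 difference of 3.36. The nuclear receptor coactivator gene Ncoa7 had 53.5 RPKM at 2 h against 4.005 at 0 h (3.44).

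Among the IFIT and OAS genes, 7 of 11 members were higher and none lower, with a median log2 difference of 1.41, against -0.05 over all genes. IFIT proteins bind viral RNA or the translation machinery, and OAS enzymes make the messenger that switches on RNase L. Ifit2 had 502 RPKM at 2 h against 14.4 at 0 h, a log2 difference of 5.03. Ifit1 had 1203 RPKM at 2 h against 158 at 0 h, a log2 difference of 2.92. Ifit3 had 884 RPKM at 2 h against 167 at 0 h, a log2 difference of 2.4. Ifit2 started lowest and ended lowest of these, with the largest relative difference. Within the same cluster on chromosome 19, Gm14446 (chr19:34592888-34601968) had 177 RPKM at 2 h against 3.34 at 0 h, and I830012O16Rik had 568 RPKM at 2 h against 81.9 at 0 h. The IFIT genes are similar in sequence and the handling of reads that map to several places was not given, so their separate levels are uncertain.

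Of the OAS and OAS-like genes, 4 of 8 were higher. Oasl1 had 36.6 RPKM at 2 h against 2.997 at 0 h, a log2 difference of 3.23, and Oasl2 had 265 RPKM at 2 h against 165 at 0 h, a log2 difference of 0.68. Oas1b, Oas1c and Oas1g were higher, with log2 differences of 2.003, 1.41 and 1.04. Oas1a, Oas2 and Oas3 were not, at 0.91, 0.86 and 0.56. Oas2 had 93.2 RPKM at 2 h against 50.8 at 0 h, and Oas3, the list's smallest difference, had 16.8 RPKM at 2 h against 11.1 at 0 h. Oas1a and Oas1g are near copies of each other and their split is uncertain.

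Of 31 further antiviral genes tested, 21 were higher and none lower, with a median of 1.54. Mx1, a dynamin-like GTPase against influenza virus that C57BL/6 mice carry as a defective allele, had 399.6 RPKM at 2 h against 13.3 at 0 h, a log2 difference of 4.81. Its paralog Mx2 had 111 RPKM at 2 h against 12.02 at 0 h. Eif2ak2, which encodes the kinase PKR that halts translation on double-stranded RNA, had 120.1 RPKM at 2 h against 40.5 at 0 h. Samhd1, which depletes the nucleotides needed for reverse transcription, had 229.9 RPKM at 2 h against 56.6 at 0 h. All 4 of these rose. The genes for membrane restriction factors did not: Bst2, the tether of budding virions, had 425 RPKM at 2 h against 458 at 0 h. Ifitm3, which blocks viral fusion, had 1717 RPKM at 2 h against 1818 at 0 h. Ly6e had 964 RPKM at 2 h against 964 at 0 h, with a ratio of 0.9995 (counting interval 0.993 to 1.01). Ifitm2 gave the lowest difference of the list, -0.15.

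The interferon-inducible GTPases were higher in 18 of 18 members tested, with a median of 2.67. These comprise guanylate-binding proteins (GBPs) and immunity-related GTPases (IRGs), which attack the vacuoles of intracellular microbes. Gbp5 had 28.8 RPKM at 2 h against 0.305 at 0 h, a ratio of 94.5-fold whose counting interval ran from 78.7 to 114. Gbp4 had 33.4 RPKM at 2 h against 1.21 at 0 h. Gbp2, the most abundant of the list, had 538 RPKM at 2 h against 38.975 at 0 h, a log2 difference of 3.75. Among the IRGs, Iigp1 had 479 RPKM at 2 h against 64.1 at 0 h, and Tgtp1 had 382 RPKM at 2 h against 56.4 at 0 h. Irgm1, a regulatory IRG, had 397 RPKM at 2 h against 137 at 0 h. The smallest difference was that of Gbp3, 1.39. Several GBPs, and Tgtp1 with Tgtp2, are near copies, so the levels of single members are uncertain.

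Nucleic acid sensors were higher in 16 of 21 members and lower in none, with a median of 1.34. Tlr3, the endosomal sensor of double-stranded RNA, rose most, to 172 RPKM at 2 h, against 14.4 RPKM at 0 h (3.49 on the log2 scale). The cytosolic RNA sensor genes Ifih1 (MDA5), Dhx58 (LGP2) and Ddx58 (RIG-I) were higher by 2.35, 1.06 and 1.04. Mb21d1, which encodes the DNA sensor cGAS, had 13.2 RPKM at 2 h against 4.61 at 0 h. The adaptors of the sensors did not move alike: Myd88, the adaptor of most Toll-like receptors, had 85.5 RPKM at 2 h against 23.6 at 0 h and rose. Mavs, the mitochondrial adaptor of RIG-I and MDA5, had 11.2 RPKM at 2 h against 16.8 at 0 h, and Tmem173 (STING), the adaptor of cGAS, had 33.3 RPKM at 2 h against 34.2 at 0 h, and neither passed the threshold. The PYHIN genes Ifi203, Ifi205, Mndal and Mnda, which encode DNA-binding proteins and are hard to tell apart by sequence, were all higher, by 2.398, 2.595, 1.67 and 1.35.

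The list of ISG15 conjugation and TRIM genes had 13 of 19 members higher and none lower, with a median of 1.36. Isg15 itself, the ubiquitin-like modifier, had 173 RPKM at 2 h against 82.7 at 0 h (1.05). Its activating enzyme gene Uba7 rose by 1.58 and the mouse ligase gene Herc6 by 2.297, while the conjugating enzyme gene Ube2l6, at 0.54, did not pass the threshold. Trim21, an antibody receptor of the cytosol and ubiquitin ligase, had the largest difference, 75.5 RPKM at 2 h against 8.55 at 0 h. Usp18, which removes ISG15 and also blocks signalling at IFNAR2, had 364 RPKM at 2 h against 76.6 at 0 h, 4.75-fold higher. Of 12 PARP genes, 5 were higher and none lower (median 0.94). Parp14, an ADP-ribosyltransferase, led with 146 RPKM at 2 h against 23.2 at 0 h, and Parp1, the DNA damage enzyme, had the lowest difference, -0.35.

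**Figure D2:**
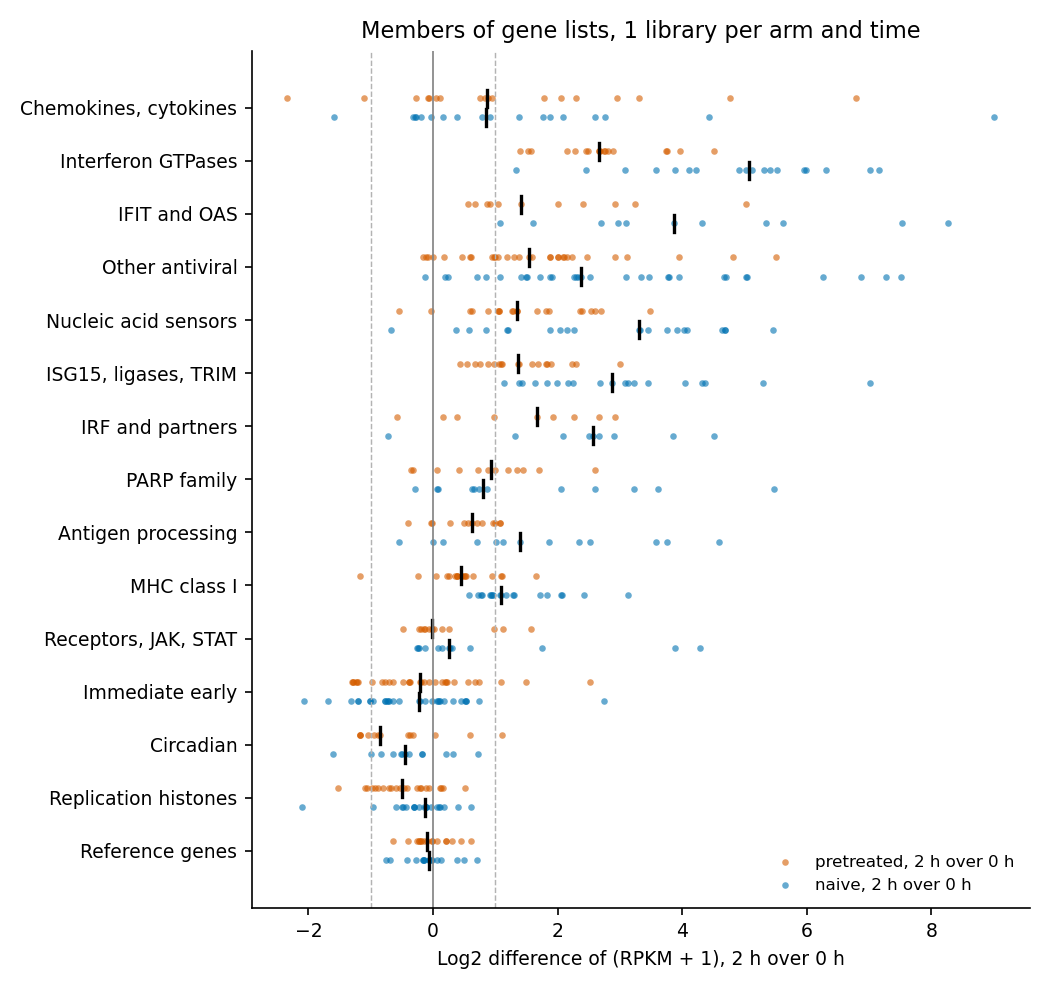
Log2 difference of RPKM + 1 at 2 h over 0 h for each tested member of 15 gene lists (horizontal axis), in pretreated cells (orange, upper row of each list) and naive cells (blue, lower row), 1 library per arm and time. Black ticks are medians and dashed lines a 2-fold difference. GTPases had a median of 2.67 in pretreated cells and 5.07 in naive cells, and the circadian list a median of -0.85 in pretreated cells.

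The receptor, kinase and STAT genes of the pathway mostly stayed within 2-fold: 2 of 13 were higher, none lower, and the median was -0.02. Shares over all genes were 3.6% higher and 1.11% lower. Jak2, a kinase better known from interferon-gamma signalling, had 35.9 RPKM at 2 h against 11.4 at 0 h (1.57). Stat2 had 193 RPKM at 2 h against 97.2 at 0 h (0.98), just under the threshold. The receptor genes Ifnar1 and Ifnar2 differed by -0.02 and -0.199, and the kinase genes Jak1 and Tyk2 by 0.14 and -0.23. Of 9 interferon regulatory factor genes and partners, 5 were higher and none lower, with a median of 1.66. Irf1, a factor of the early response, had 138 RPKM at 2 h against 27.9 at 0 h. Irf5 had 23.5 RPKM at 2 h against 2.23 at 0 h, the largest difference of the list at 2.93. Irf2, which competes with IRF1 for its sites, rose by 1.66, and Nlrc5, the activator of MHC class I genes, by 1.93. Irf7 had 201 RPKM at 2 h against 180.0 at 0 h, and Irf9, the DNA-binding part of ISGF3, had 91.5 RPKM at 2 h against 69.5 at 0 h, and neither passed the threshold.

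Of 15 inhibitors of cytokine signalling, 2 were higher, both strongly, and none was lower, against 3.6% higher and 1.11% lower over all genes. Socs1, which inhibits the JAK kinases, had 206 RPKM at 2 h, from 20887 counts, against 11.983 RPKM at 0 h, from 1870 counts, 17.1-fold higher (interval 16.4 to 17.99). The second was Usp18, given above. Socs3, which acts on receptors of the gp130 family, had 9.87 RPKM at 2 h against 20.7 at 0 h. Socs2 stood at 0.98 and the phosphatase gene Ptpn11 (SHP2) at 0.08. Il1rn, the interleukin-1 receptor antagonist and the most abundant transcript of the list, had 248 RPKM at 2 h against 284 at 0 h.

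Genes of MHC class I presentation differed little between 2 h and 0 h. Of 19 heavy chain genes with B2m, 3 were higher, 1 was lower, and the median was 0.45. B2m, the light chain, had 5821 RPKM at 2 h against 6861 at 0 h, a ratio of 0.848. H2-K1 had 425 RPKM at 2 h against 325 at 0 h, and H2-D1 had 457 RPKM at 2 h against 382 at 0 h. The 3 that rose were the non-classical genes H2-M3 (1.66), H2-T22 (1.102) and H2-T9 (1.09). H2-Q10 was the lower one, with 5.75 RPKM at 2 h against 14.3 at 0 h. The H2 genes share long identical stretches, and H2-T22 with H2-T9 and H2-D1 with H2-L carried nearly equal values, so these are not independent counts. Of 13 antigen processing genes, 2 were higher, the immunoproteasome genes Psmb9 (72.021 RPKM at 2 h against 33.6 at 0 h) and Psmb10 (51.3 RPKM at 2 h against 23.9 at 0 h). Tap1, a subunit of the peptide transporter, stood at 0.95. None of the 14 constitutive proteasome genes passed the threshold. Beside these counts, the shares over all genes were 3.6% higher and 1.11% lower.

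Of 18 chemokine and cytokine genes tested, 7 were higher and 2 lower. Beside Cxcl10 and Tnfsf10, Il6, a cytokine of the acute phase, had 18.3 RPKM at 2 h against 0.956 at 0 h (3.301). Il15, which sustains natural killer and memory T cells, had 19.8 RPKM at 2 h against 1.703 at 0 h (2.94). Ccl7, a monocyte chemoattractant, had 408 RPKM at 2 h against 97.1 at 0 h (2.06), while its neighbour Ccl2 had 528 RPKM at 2 h against 285 at 0 h (0.89), under the threshold. The CXCR3 ligand genes Cxcl9 and Cxcl11 were also higher, but at 3.02 and 4.74 RPKM they remained low at 2 h. Both lower genes encode neutrophil chemokines: Cxcl1 had 1.26 RPKM at 2 h against 10.5 at 0 h (-2.34), and Cxcl5 had 26.4 RPKM at 2 h against 58.2 at 0 h (-1.11). Il6 and Cxcl1, both NF-kB targets in fibroblasts, thus moved in opposite directions. Of 18 NF-kB pathway genes and targets, 2 were higher (Tnfaip3 at 1.27 and Birc2 at 1.18), and 1 was lower, Bcl3, an atypical IkB protein, with 7.38 RPKM at 2 h against 20.2 at 0 h. Over all genes 3.6% were higher and 1.11% lower, and so few NF-kB calls are not read as a result about that list.

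Cell death and nuclear body genes were higher in 6 of 20 members and lower in none (median 0.71). Daxx, a chaperone that places histone H3.3 and resides in PML bodies, had 173 RPKM at 2 h against 30.1 at 0 h, a log2 difference of 2.48. The inflammatory caspase genes Casp4 and Casp12 rose by 2.16 and 1.301, and Sp100, a nuclear body component, by 1.35. Pml stood at 0.8. Daxx is also 1 of 15 genes listed for H3.3 and its chaperones, of which 2 were higher and none lower. The other was Asf1a, a histone H3-H4 chaperone, with 28.3 RPKM at 2 h against 9.38 at 0 h (1.499). The H3.3 genes differed by 0.13 for H3f3a and 0.01 for H3f3b, the edited locus. Hira, which deposits H3.3 at active genes, had 12.3 RPKM at 2 h against 16.2 at 0 h. For both lists, the shares over all genes were 3.6% higher and 1.11% lower.

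Over the 10 interferon lists, 166 distinct genes were tested, and 92 of them (55.4%) were higher at 2 h and 1 was lower, against 3.6% and 1.11% of all genes. In 69 of the 166 genes the 0 h level was 50% or more of the 2 h level, and in 15 it was under 10%. A 0 h level of 50% or more was usual over all genes. Their log2 difference had a median of -0.05 and a 95th percentile of 0.80. The 69 also include genes that changed little in both arms, such as Ifnar1 and Pdia3, so their number is not a measure of carry-over. Of the 19 genes at 100 RPKM or more at 0 h, 3 were higher at 2 h, Ifit1, Ifit3 and Irgm1. Those that were not higher included B2m, Bst2, Irf7, Ly6e and Oasl2. Level at 0 h enters this difference as its denominator, so the relation between the 2 is a description only.

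The same 2 h interval in naive cells gave 481 higher genes (3.95%) and 154 lower ones (1.27%), with no library in common between the arms. Of the genes that were higher, 318 were shared, which is 72.6% of the pretreated and 66.1% of the naive list, and 51 of the lower genes were shared, 37.8% of the pretreated and 33.1% of the naive list. No gene was higher in pretreated and lower in naive cells. Snord42b and Snord45b, small nucleolar RNAs named here after their values were seen, were lower in pretreated and higher in naive cells. Among the 166 interferon genes, 92 were higher in pretreated and 127 in naive cells, with median differences of 1.08 in pretreated and 2.34 in naive cells.

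The log2 change from 0 to 2 h, taken with its sign, was higher by 1 or more in pretreated than in naive cells for 52 genes (0.427%). It was lower by 1 or more for 216 (1.78%). The sign of this difference does not give the size of a change. Rmrp, which fell by -3.79 in pretreated and -0.40 in naive cells, is among the 216. These differences of changes were not tested. The 8 genes with the most negative difference, pretreated minus naive change, were Ifit1, Ifit3, Usp18, Oasl2, I830012O16Rik, Rtp4, Irf7 and Iigp1. For Irf7 the pretreated libraries held 201 RPKM at 2 h against 180.0 at 0 h, and the naive libraries 72.2 RPKM at 2 h against 2.22 at 0 h. For Ifit1 the pretreated libraries held 1203 RPKM at 2 h against 158 at 0 h, and the naive libraries 1276 RPKM at 2 h against 3.14 at 0 h. In both, the arms differed far more at 0 h than at 2 h. Socs1 was unlike them, with 206 RPKM at 2 h against 11.983 at 0 h in pretreated cells and 157 RPKM at 2 h against 8.905 at 0 h in naive cells, log2 changes of 3.99 and 3.99.

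On the scale of RPKM + 1, the 8 genes with the most positive difference between the arms' changes were Egr1, Mxd1, Mir703, Gata3, Pydc4, Gm7609, Gbp4 and Mir684-1. Mxd1 rose by 3.36 in pretreated and 1.33 in naive cells, and Gata3, a zinc finger transcription factor, had 30.956 RPKM at 2 h against 7.64 at 0 h in pretreated cells, and 10.9 RPKM at 2 h against 8.43 at 0 h in naive cells. Gbp4 had 33.4 RPKM at 2 h against 1.21 at 0 h in pretreated cells, and 4.57 RPKM at 2 h against 0.017 at 0 h in naive cells. In these 3 genes the pretreated 2 h library held the highest level of all 10. The direction for Gbp4 and for Pydc4 depended on the pseudocount. With 0.1 RPKM in place of 1, the pretreated change minus the naive one was -0.65 for Gbp4, -0.15 for Pydc4 and 0.33 for Gm7609. The other 5 stayed 2-fold or more apart with pseudocounts of 0.1 and 5 RPKM. Egr1, an immediate early factor, did not rise; its difference came from 57.5 RPKM at 2 h against 49.8 at 0 h in pretreated cells beside 25.7 RPKM at 2 h against 111 at 0 h in naive cells. Mir684-1 is listed at several places of the genome in the table, and the values of short RNA genes in such libraries are uncertain.

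At 2 h, pretreated cells held 2045 genes (16.8%) above all 5 naive libraries, and 162 (1.33%) 1.5-fold or more above them. Of the 166 interferon genes, 50 (30.1%) were above all naive libraries and 10 (6.02%) were 1.5-fold or more above. The 10 were Aim2, Apobec1, Gbp11, Gbp4, Gbp8, Gbp9, H2-Q7, Irf5, Rsad2 and Trim21. Aim2 reached 1 RPKM only in the pretreated 2 and 4 h libraries, with 1.86 RPKM at 2 h. It thus passed the filter only through the pretreated arm, and its place among the 10 is not support for a difference. H2-Q7 and several GBPs have near copies, so their separate levels are uncertain. Rsad2 had 650.3 RPKM in the pretreated 2 h library, against a highest naive value of 311 RPKM, at 4 h. Trim21 had 75.5 RPKM there, against a highest naive value of 46.2 RPKM, at 2 h. Cd274, on the checkpoint list, had 111 RPKM at 2 h in pretreated cells, against a highest naive value of 40.4 RPKM, also at 2 h.

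**Figure D3:**
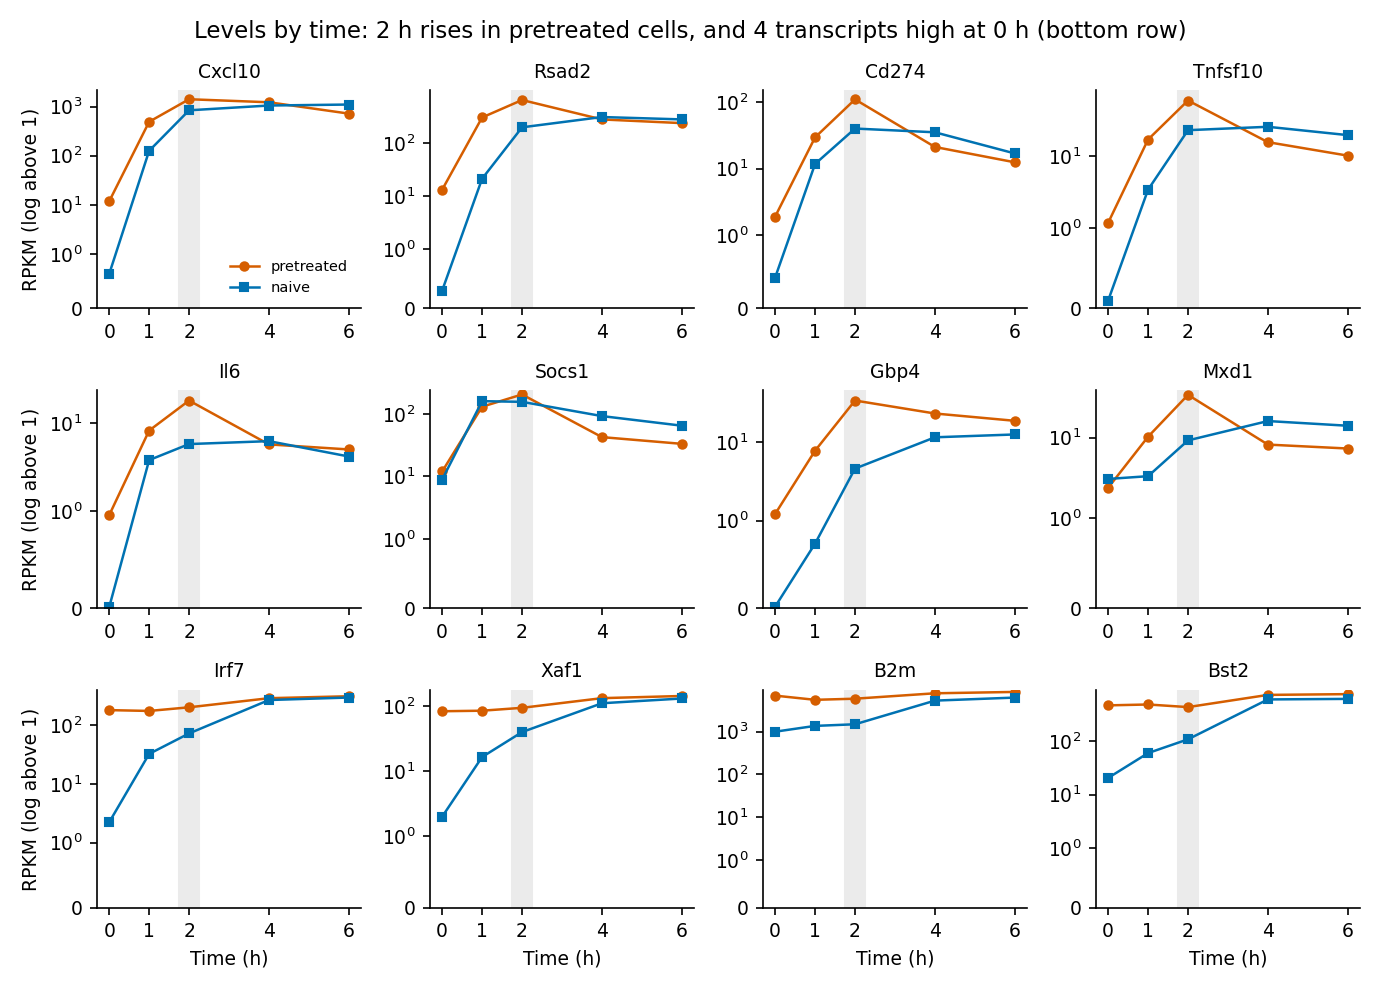
Level in RPKM (vertical axis, linear below 1 and logarithmic above) against time in hours in pretreated (orange circles) and naive (blue squares) cells, 1 library per point, with 2 h shaded. Cxcl10, Rsad2, Cd274, Tnfsf10, Il6, Socs1, Gbp4 and Mxd1 are highest in the pretreated arm at 2 h, while Irf7, Xaf1, B2m and Bst2 in the bottom row are already high at 0 h of that arm.

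By time, 104 of the 438 higher genes (23.7%) were already 2-fold higher at 1 h, and 413 (94.3%) stood at 1 h between their 0 h and 2 h levels. Over 1, 2, 4 and 6 h, the median difference of the 438 genes from 0 h was 0.58, 1.5, 1.38 and 1.22, for genes chosen on their 2 h and 0 h values. By 6 h, 63 of them (14.4%) had come down 2-fold or more from 2 h. The 20 largest rises, also chosen on their pretreated 2 h and 0 h values, had medians of 3.67, 30.6, 101, 55.3 and 46.6 RPKM at 0, 1, 2, 4 and 6 h of the pretreated arm, and of 0.192, 11.9, 34.5, 70.7 and 70.7 RPKM at the same times of the naive arm. Of the 166 interferon genes, 41 (24.7%) had their highest pretreated level at 2 h and 15 (9.04%) had their highest naive level at 2 h, against 18% and 20.5% of all genes. Socs1 stood at 11.983, 131, 206, 42.6 and 33.2 RPKM over the pretreated times and Rsad2 at 13.3, 305, 650.3, 280.3 and 239 RPKM. The 1 and 4 h libraries differ from the 0 and 2 h ones in H19 and Igfbp2, as given above.

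The 3 largest falls were in small noncoding RNAs. Rmrp (chr4:43492785-43493059), the RNA of RNase MRP, had 4.58 RPKM at 2 h, from 105 counts, against 76.014 RPKM at 0 h, from 2676 counts. Rpph1 (chr14:50807447-50807771), the RNA of RNase P, had 7.08 RPKM at 2 h against 110.2 at 0 h, and the RNase P RNA-like gene Rprl3 had 2.63 RPKM at 2 h against 48.5 at 0 h. All 3 were at their highest of the 10 libraries at pretreated 0 h, and in naive cells Rmrp stood at 5.98, 21.9, 4.296, 6.69 and 3.63 RPKM at 0, 1, 2, 4 and 6 h. Rn45s fell to 2452 RPKM at 2 h, against 6751 RPKM at 0 h, and its naive values ran from 1678 to 2612 RPKM. Lars2, which encodes the mitochondrial leucyl-tRNA synthetase, had 108 RPKM at 2 h against 341 at 0 h, and the microRNA gene Mir5109 had 117 RPKM at 2 h against 495 at 0 h. All 6 transcripts were highest at 0 h of the pretreated arm, where Rn45s took 3.9% of counts; the part of that library in their falls was not tested. Malat1 and Neat1, polymerase II products retained in the nucleus, differed by 0.34 and -0.07.

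Among protein-coding genes, the large falls were those of Cxcl1, Mnt, Efna1, Tfap4, Ephb3, Plekhh3, Ddit4, Snai1, Ccnf, Lars2 and Ahdc1. Lars2, like Rn45s, was highest at pretreated 0 h, as given above, and its log2 difference in naive cells was 0.42. The part of the pretreated 0 h library in its fall was not tested. Mnt (chr11:74830924-74845725), a MAX partner that represses MYC targets, had 3.42 RPKM at 2 h, from 1308 counts, and 19.5 RPKM at 0 h, from 11445 counts, a ratio of 0.175 (interval 0.166 to 0.186). Tfap4, a helix-loop-helix factor and MYC target, had 3.08 RPKM at 2 h against 14.5 at 0 h. With Mxd1 higher, 2 dimer partners of MAX thus moved in opposite directions, while Myc itself differed by -0.36. Efna1, a ligand of Eph receptors, had 3.66 RPKM at 2 h against 17.3 at 0 h, and Ephb3, an Eph receptor, had 11.2 RPKM at 2 h against 43.5 at 0 h. Snai1, a repressor of epithelial genes, had 31.9 RPKM at 2 h against 106 at 0 h. Ddit4, an inhibitor of mTORC1, had 6.16 RPKM at 2 h against 24.4 at 0 h. Mnt, Tfap4, Efna1, Ephb3, Snai1 and Ddit4, chosen on their 2 h and 0 h values, were each at its lowest pretreated level at 2 h. In naive cells Mnt, Efna1, Tfap4, Ephb3 and Snai1 fell as well over the same interval, with log2 differences of -1.35, -1.02, -1.25, -1.58 and -1.32, and Ddit4 stood at -0.89.

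**Figure D4:**
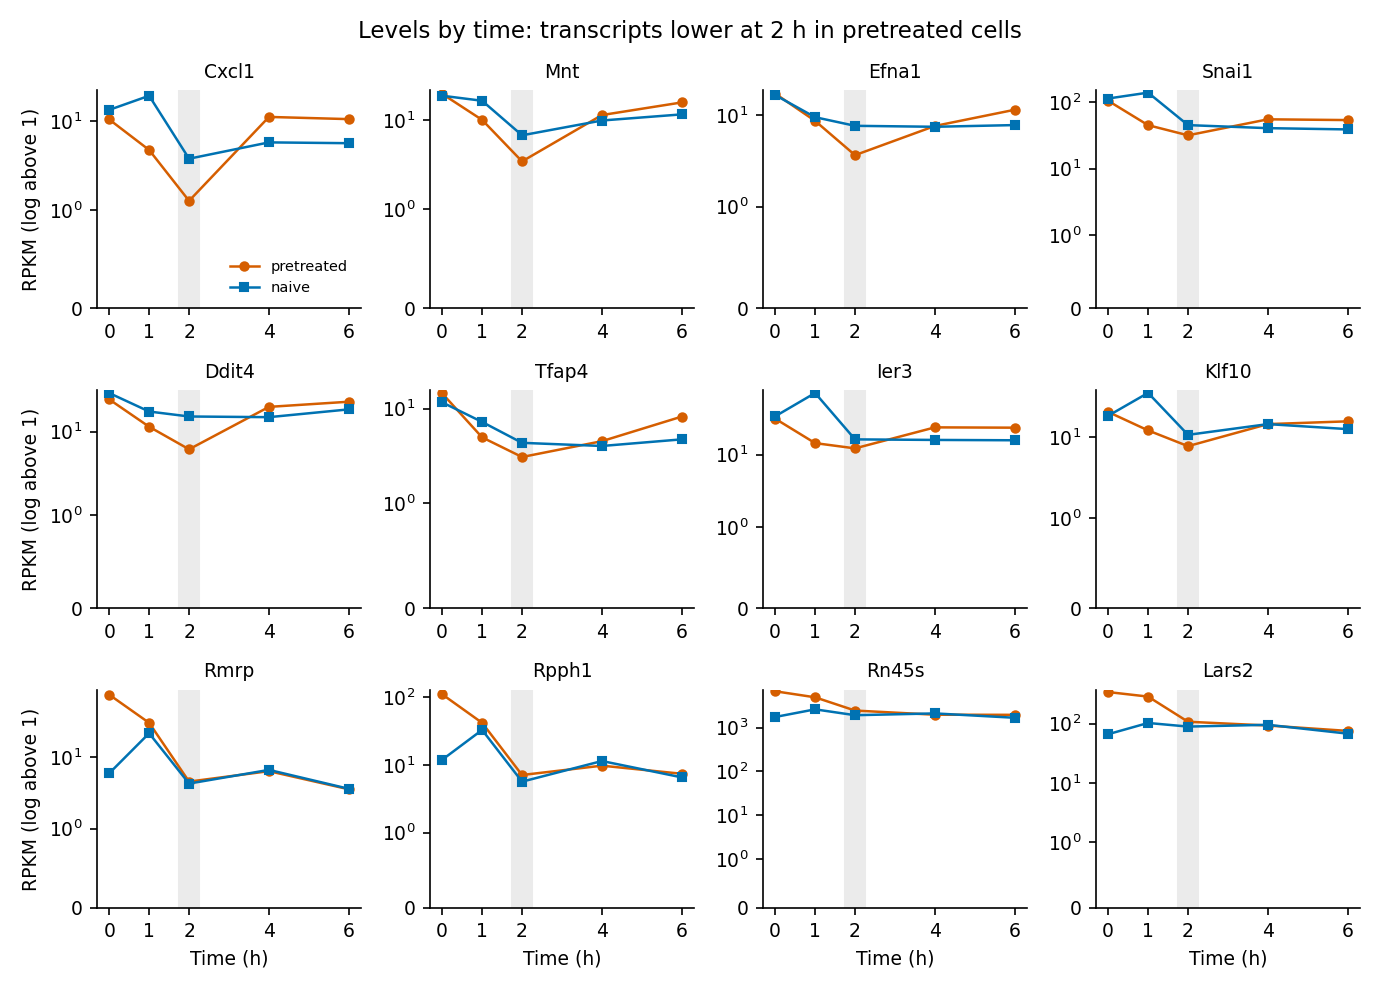
Level in RPKM (vertical axis, linear below 1 and logarithmic above) against time in hours for 12 transcripts lower at 2 h than at 0 h in pretreated cells, with pretreated cells in orange circles, naive cells in blue squares, 1 library per point and 2 h shaded. Cxcl1, Mnt and Efna1 reach their lowest pretreated level at 2 h and are higher again at 6 h, while Rmrp, Rpph1, Rn45s and Lars2 in the bottom row are high at 0 h of the pretreated arm.

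The 135 lower genes were chosen on their 2 h and 0 h values, which favours a low 2 h level. Over these genes the median difference from 0 h over 1, 2, 4 and 6 h was -0.6, -1.22, -0.59 and -0.46. By 6 h, 43 of them (31.9%) stood 2-fold or more above their 2 h level. Because of that choice, the return is a description only. Lower genes were also short and had few exons. Their median was 3 exons and a span of 7.0 kb, and 66.7% spanned under 10 kb. Higher genes had a median of 7 exons and 20.2 kb, with 29.2% under 10 kb, against 8 exons, 20.2 kb and 29.9% over all genes tested. Restricted to coding transcripts, the medians were 4 exons and 7.81 kb for lower genes, 7 exons and 21.4 kb for higher genes, and 9 exons and 21.6 kb over all. Noncoding RefSeq transcripts made up 14.8% of lower and 8.22% of higher genes, against 5.98% of all.

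Of 31 immediate early genes, which need no new protein to be induced, 3 were higher and 6 lower (median -0.21). The higher ones were Atf3, Dusp6 and Klf6. Atf3, a stress-induced repressor, had 21.6 RPKM at 2 h against 2.96 at 0 h, and Dusp6, a phosphatase of ERK, had 23.4 RPKM at 2 h against 7.68 at 0 h. The lower ones were Klf10, Ier3, Ier2, Fosl2, Fosl1 and Dusp1, at -1.299, -1.29, -1.29, -1.24, -1.22 and -1.21. Fosl1, an AP-1 subunit, had 28.004 RPKM at 2 h against 66.6 at 0 h. In naive cells 1 of the 31 was higher and 7 were lower. Of 13 circadian genes, 4 were lower and 1 higher, with a median of -0.85 in pretreated and -0.44 in naive cells. The 4 were Nr1d1, Cry2, Bhlhe40 and Bhlhe41, all repressors in the clock. Nr1d1 had 16.8 RPKM at 2 h against 35.8 at 0 h in pretreated cells, and 14.5 RPKM at 2 h against 46.2 at 0 h in naive cells. Cry1, also a repressor of the clock, rose to 9.99 RPKM at 2 h, against 4.11 RPKM at 0 h. Beside the counts of both lists in pretreated cells, 3.6% of all genes were higher and 1.11% lower.

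Replication-dependent histone genes had 3 of 22 members lower and none higher, against 1.11% and 3.6% of all genes. Their median was -0.50, and -0.13 in naive cells. The 3 lower genes were Hist2h4, Hist2h2ac and Hist1h2ae, at -1.53, -1.09 and -1.05. Most transcripts of these genes end without a poly(A) tail, and the genes are near copies, so their levels are uncertain. Over the same libraries none of 23 replication genes and 1 of 24 mitosis genes, Cdc20 at -1.03, passed the threshold; Cdc20 missed it at -0.995 with median-of-ratios size factors and at -0.887 with a pseudocount of 5 RPKM.

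On a mixed list of prostaglandin genes and others, 2 of 9 were higher, Has2 and Ptgs2, and 2 were lower. Has2, which makes the matrix polymer hyaluronan, had 74.6 RPKM at 2 h against 6.68 at 0 h in pretreated cells (3.299), and 50.3 RPKM at 2 h against 6.32 at 0 h in naive cells (2.81). Ptgs2, the inducible cyclooxygenase COX-2, had 65.2 RPKM at 2 h against 27.9 at 0 h. Adora2b and Fosl2 were the lower ones, at -1.38 and -1.24, and Fosl2 was also counted among the immediate early genes. Mmp13, a collagenase, had 11.7 RPKM at 2 h against 1.7 at 0 h and was the 1 of 26 matrix genes to pass. Ctgf, a matricellular protein and target of YAP, had 91.3 RPKM at 2 h against 27.3 at 0 h and was the 1 of 15 SRF and YAP targets to pass. Igfbp3 was the 1 of 17 imprinted and IGF genes to pass, at 1.03. Of 18 p53 targets, Eda2r was higher (1.32) and Gdf15 lower (-1.098). Over all genes tested, 3.6% were higher and 1.11% lower. A single call in a list of this size is near that share and is not a result about the list.

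No member passed the threshold among 19 oxidative phosphorylation genes, 22 ribosomal protein genes, 20 cholesterol synthesis genes, 13 endoplasmic reticulum stress genes, 12 heat shock genes, 17 ATF4 targets, 14 hypoxia and glycolysis genes or 14 elongation and H3K36 methylation genes. The same held for 17 reference genes, whose differences ran from -0.65 for Gapdh to 0.61 for Hprt. Since 4.71% of all genes passed in either direction, the lack of a call in a single list of 12 to 22 genes says little about that list. The 10 snoRNA host genes had 1 lower member, Snhg9, at -1.02, which rests on 54 counts at 2 h and missed the threshold at -0.995 with median-of-ratios size factors and at -0.633 with a pseudocount of 5 RPKM.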

How the data were processed

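Per the labels, RNA from cultured MEFs was sequenced on an Illumina HiSeq2000, with 1 library for each of 10 combinations of arm and time. Bowtie, TopHat, Cufflinks 1.2.1 and the mm10 build are named in the submitters' processing notes, without their settings. The authors deposited, per RefSeq transcript, whole-number read counts and RPKM values made from them: count and RPKM differed between genes only by a transcript and a library factor, to within 0.000167 on the log2 scale over 7630 genes at 5 RPKM or more. Strand handling and the treatment of reads with several matches were not given in the sources used here. Transcripts without a gene symbol (15 of 30646) stayed out and held between 0.0157% and 0.0193% of counts. No value column was left unmapped.

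From the RPKM, log2 differences were computed with a pseudocount of 1 RPKM, after the filter of 1 RPKM in 2 libraries. Intervals on ratios are exact 95% Clopper-Pearson intervals on the counts and cover counting error only, since reads without molecular identifiers are not independent molecules. The steps were run on simulated counts with known folds and no variation between cultures, which cannot show how repeatable the calls are. Python 3.11.15, pandas 2.3.3, scipy 1.17.1 and edgeR 4.0.16 (for scaling factors only) were used. Named genes were the 20 largest rises and 15 largest falls at 10 RPKM or more, the 8 most apart between arms in each direction, and, per list, the 4 with the highest levels and both extremes; other list members were named beside their list. Some members counted in the lists are not reported here by name. The 10 interferon lists were those of receptors and STATs, IRFs, IFIT and OAS, antiviral effectors, GTPases, ISG15 and TRIM, PARPs, sensors, MHC class I and antigen processing. The comparison and its 38 gene lists were chosen with earlier results of these data known. Alternatives were other pseudocounts, filters, folds, scalings, and sums over transcripts. Coordinates are 1-based mm10; promoter sequences come from RefSeq on GRCm38.p6.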

Additional observations from a re-analysis of the deposited data

Results flagged for a closer look

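Genes whose change from 0 to 2 h had opposite signs in the 2 arms, with changes 2-fold or more apart, were singled out among the named genes. With 1 library per arm and time these differences were not tested. The difference of log2 changes, pretreated minus naive, was -1.64 for Bcl3, -2.44 for Bst2, 2.28 for Egr1, -1.89 for H2-Q10, -2.08 for Lars2, -1.57 for Lgals3bp, 1.46 for Mir684-1, 1.92 for Mir703, -1.6 for Rn45s and -1.14 for Socs3. Socs3 and Bcl3 shared a time course in naive cells. Socs3 stood at 9.87 RPKM at 2 h against 20.7 at 0 h in pretreated cells, with 15.9 RPKM at 1 h, and at 27.4 RPKM at 2 h against 24.7 at 0 h in naive cells, with 213 RPKM at 1 h. Bcl3 had 10.6 RPKM at 1 h in pretreated cells and 94.4 RPKM at 1 h in naive cells. For Bst2 and Lgals3bp the pretreated changes were small, at -0.11 and -0.09, beside naive changes of 2.33 and 1.48.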

How the results depend on the processing

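No paired analysis was possible because the labels carry no replicate numbers and each arm and time has 1 library; for the same reason no library could be left out. The counts of called genes moved more with the pseudocount and the fold than with the scaling. With a pseudocount of 0.1 RPKM, 307 genes were lower in pretreated cells and 293 in naive cells, and the changes of the arms were 2-fold apart upwards for 136 genes and downwards for 404. With a pseudocount of 5 RPKM, 250 genes were higher and 49 lower in pretreated cells, 264 were higher and 49 lower in naive cells, and the arms' changes were apart for 14 upwards and 92 downwards. With a filter of 5 RPKM, 28 genes were apart upwards. At a fold of 1.5, 934 genes were higher and 895 lower in pretreated cells, 1121 higher and 906 lower in naive cells, and 303 and 592 apart. At a fold of 3, 188 were higher and 18 lower in pretreated cells, 254 higher and 11 lower in naive cells, and 5 and 113 apart. In pretreated cells the scalings (TMM, median of ratios, totals without Rn45s) gave 425 to 462 higher and 120 to 158 lower genes. Restriction to protein-coding transcripts, chosen after seeing the data, gave 402 higher and 115 lower. All 88 named genes past the threshold kept their direction under the 8 other settings of pseudocount, filter, scaling and transcript sum in which they were tested, and 75 stayed past it with a pseudocount of 5 RPKM. Of 608 list counts under these settings, 589 were within 1.5 times the reported one. Of the 88 named genes past the threshold, 5 had counting intervals that cross it: Cdc20, Gdf15, Igfbp3, Nr1d1 and Snhg9. Cdc20 and Snhg9 also missed it with median-of-ratios size factors, both at -0.995. Chosen after seeing the data, the difference between the arms' changes was recomputed with a pseudocount of 0.1 RPKM, and it reversed for Gbp4 (-0.647) and Pydc4 (-0.147). The limit is that 1 library per time gives no spread between cultures, so neither the calls nor the differences between arms carry a test.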

Other observations

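The other Toll-like receptor genes listed, Tlr2 and Tlr4, had lower levels than Tlr3 at 2 h in pretreated cells. Tlr2, the receptor of bacterial lipoproteins, had 36.5 RPKM at 2 h against 14.5 at 0 h in pretreated cells (1.27), and 15.4 RPKM at 2 h against 9.95 at 0 h in naive cells (0.58). Tlr4, the receptor of endotoxin, had 13.4 RPKM at 2 h against 6.87 at 0 h in pretreated cells (0.88). Its log2 difference in naive cells was 0.85. Nod1, a cytosolic receptor of bacterial wall fragments and not a Toll-like receptor, had 25.2 RPKM at 2 h against 3.53 at 0 h in pretreated cells (2.53). It stood at 7.63 RPKM at 6 h of that arm, and its 2 h log2 difference in naive cells was 2.15.

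On a list of checkpoint ligands and other genes, 3 of 7 members tested were higher at 2 h and none lower: Cd274, Cd47 and Cd80. Shares over all genes were 3.6% higher and 1.11% lower. Lgals9, Lgals3bp, Pvr and Pvrl2 did not pass the threshold, at 0.445, -0.09, -0.287 and -0.567. Cd47, the signal that restrains phagocytes, had 118 RPKM at 2 h against 49.7 at 0 h, and Cd80, a ligand of CD28 and CTLA-4, had 23.6 RPKM at 2 h against 9.54 at 0 h. Ch25h, which makes the antiviral oxysterol formed by hydroxylation of cholesterol, had 5.02 RPKM at 2 h against 0.416 at 0 h, while no member of the cholesterol synthesis list was 2-fold apart. Apobec1, a cytidine deaminase gene, had 36.958 RPKM at 2 h in pretreated cells, against 18.1 RPKM at 6 h in naive cells. The cause of none of these differences was tested.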
